A study of Mus musculus with 4 samples.

Results

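Urothelium-rich spots of the Uox_KO kidney sections are the tissue spots with the most transcript of 5 urothelium genes, Upk1b, Upk2, Upk3a, Krt5 and Krt15. The UMIs (unique molecular identifiers, each standing for 1 captured transcript) of these genes were divided by the spot's UMIs from other than mitochondrial genes, scaled to 10000, taken as log1p (natural log of 1 plus the level) and added. The highest 2% of spots in each section were the members, with ties given to the spot with more UMIs, so the members were chosen by the measured levels of these 5 genes. This gave 53 of 2650 spots in Uox_KO 1 and 52 of 2590 spots in Uox_KO 2, or 105 of the 11130 spots of the series. The other 2597 and 2538 spots of the same sections are called remaining spots below.

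The study measured gene expression with Visium slides, on which each spot collects RNA from a small patch of tissue that can hold several cells. Kidney sections of 10 µm came from 2 Uox_KO mice, in which exons 2 to 4 of Uox were deleted, and from 2 wild-type Control mice, and the labels number them as separate mice. All were male on the C57BL/6J background, the age was not given in the sources used here, and no treatment was named. Uox encodes urate oxidase, the liver enzyme that breaks down uric acid in mice, and the mouse line without it is used as a model of hyperuricemia. Uox had 0 UMIs in all 4 sections, which allows up to 0.0557 and 0.0524 CPM (counts scaled to a common library total of 1e+06) in Uox_KO and up to 0.0321 and 0.0278 CPM in Control (3 counts per section), so the deleted gene did not check the genotype labels in this tissue. The sections held 53897511 and 57230517 UMIs in Uox_KO, and 93524222 and 107962997 UMIs in Control.

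Urothelium is the stretchable lining of the renal pelvis, ureter and bladder. Its superficial (umbrella) cells cover their urine-facing membrane with uroplakin plaques, built from the tetraspanins Upk1a and Upk1b paired with Upk2 and Upk3a, which limit the passage of water and solutes. Basal cells beneath them rest on a basement membrane, carry Krt5, Krt14 or Krt15 and the transcription factor Trp63, and renew the layer; in the mouse, basal Shh signals to the stroma below. The lining is wrapped in connective tissue, smooth muscle and, at the kidney hilum, fat. The name given to the spots places them in the pelvis, but slide positions were not analysed here.

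Of the plaque genes measured, Upk1a, Upk3a and Upk3b had a RefSeq promoter window in the sequence table used (3 of the 7 genes Upk1a, Upk1b, Upk2, Upk3a, Upk3b, Krt5 and Krt15 had none). The 250 bases before each gene's start are shown because these genes carry the plaque signal of the spots. Capitals mark matches to AGATAA, 1 form of the GATA factor motif, searched on both strands. It was chosen since Gata3 is a urothelium factor measured below. Other forms of the motif were not searched. The windows are on GRCm38.p6, at chr7:30612735-30612984 on the minus strand for Upk1a, chr15:85016891-85017140 on the plus strand for Upk3a and chr5:136038246-136038495 on the plus strand for Upk3b.
Upk1a: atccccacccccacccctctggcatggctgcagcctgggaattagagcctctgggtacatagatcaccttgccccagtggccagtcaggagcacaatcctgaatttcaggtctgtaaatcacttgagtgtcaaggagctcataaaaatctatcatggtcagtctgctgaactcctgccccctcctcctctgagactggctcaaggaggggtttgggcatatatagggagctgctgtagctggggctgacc
Upk3a: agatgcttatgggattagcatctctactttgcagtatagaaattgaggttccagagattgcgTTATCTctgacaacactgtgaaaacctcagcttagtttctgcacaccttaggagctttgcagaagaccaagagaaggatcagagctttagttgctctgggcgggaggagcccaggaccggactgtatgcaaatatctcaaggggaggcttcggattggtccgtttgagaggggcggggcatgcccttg
Upk3b: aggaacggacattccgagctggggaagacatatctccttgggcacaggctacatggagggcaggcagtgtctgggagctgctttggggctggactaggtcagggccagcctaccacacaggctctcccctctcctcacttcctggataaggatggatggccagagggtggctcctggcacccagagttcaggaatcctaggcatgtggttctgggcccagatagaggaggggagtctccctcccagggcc
Upk3a held 1 match, on the minus strand, 188 to 183 bases before the start. Upk1a and Upk3b held no match to AGATAA, and 9.99% of 32851 promoter windows of this length held at least 1. As other forms were not searched, this does not show that Upk1a and Upk3b lack a GATA site. The forkhead motif TGTTTNC (in 17.8% of windows), the grainyhead motif AACNNGTT (3.64%) and the TATA motif TATAAA (12.4%) were also searched on both strands and matched none of the 3 windows.

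The 5 genes that chose the spots are described with no test. The score reached 11.9 in Uox_KO 1 and 12.6 in Uox_KO 2, with medians over members of 7.93 and 4.86. The lowest members scored 5.59 and 5.41 in Uox_KO 1 and 1.47 and 1.44 in Uox_KO 2, and the highest spots left out scored 5.29 and 5.29 in Uox_KO 1 and 1.42 and 1.39 in Uox_KO 2, so the score ran on across the limit without a step. Members held 2565 of the 3701 UMIs of the 5 genes in Uox_KO 1 (69.3%) and 2413 of 2693 in Uox_KO 2 (89.6%). Upk3a was the most abundant of them, with 1015 and 1142 CPM in members, against 6.86 and 1.72 CPM in remaining spots. Upk1b, the partner of Upk3a, had 494 and 475 CPM in members, against 4.69 and 0.889 CPM in remaining spots. Upk2, the partner of Upk1a, had 292 and 250.3 CPM in members, against 2.98 and 0.553 CPM in remaining spots. Krt5, the basal keratin, had 589 and 509 CPM in members, against 5.64 and 1.13 CPM in remaining spots. Krt15, a keratin of a subset of basal cells, had 266 and 433 CPM in members, against 2.88 and 1.24 CPM in remaining spots. CPM values of members and of other groups of spots, here and below, were scaled with TMM factors (trimmed mean of M values, a correction for differences in RNA make-up). Those of whole sections were not.

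**Figure D1:**
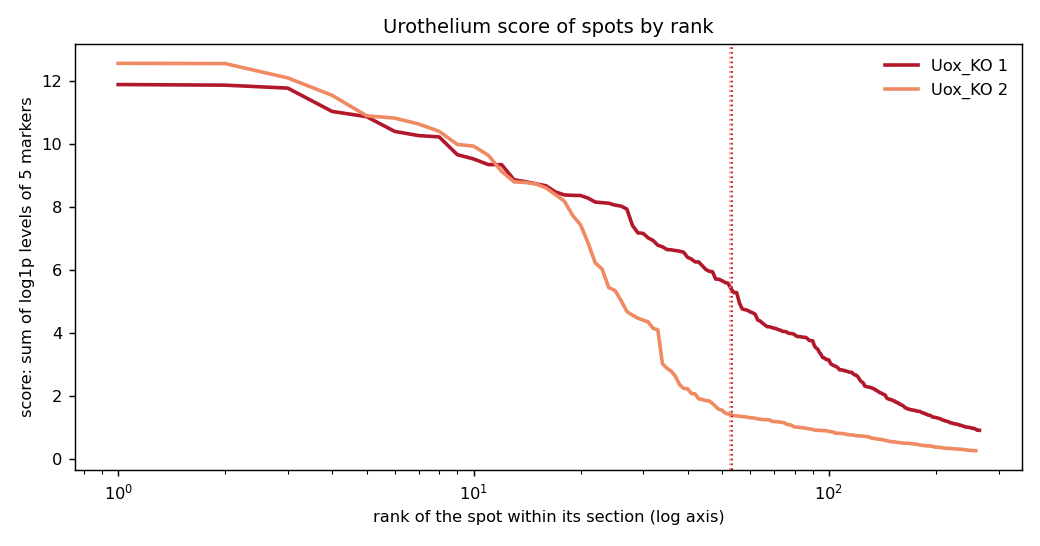
Score of the highest-ranked spots in the 2 Uox_KO sections (y axis, sum of log1p levels of 5 genes) against rank (log axis); the dotted lines are the limit after 53 and 52 spots. Both curves start between 11.9 and 12.6, and that of Uox_KO 2 is lower at the limit (1.44, against 5.41 in Uox_KO 1).

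The 2 sections differed in how evenly the markers sat in their members. In Uox_KO 1, 49 of 53 members held UMIs of at least 4 of the 5 genes, against 27 of 52 in Uox_KO 2. Upk3a was present in 53 and 44 members, Upk1b in 51 and 34, Upk2 in 51 and 26, Krt5 in 47 and 43, and Krt15 in 29 and 28. In Uox_KO 2, 6 members had no UMI of the 3 uroplakins, and in 4 of these Krt15 was the only marker. Across the 52 members of Uox_KO 2, the levels of the 3 uroplakins and Krt5 went up and down together (Pearson's r from 0.617 to 0.766 between pairs), and Krt15 did so little (0.051 to 0.225). Across the 53 members of Uox_KO 1, the uroplakins correlated with each other less (0.229 to 0.443), and Krt5 ran slightly against them (-0.296 to -0.0822). The spots of a section share a library, and these correlations are descriptions. Members were chosen by the sum of these same levels, with the limit at 5.41 in Uox_KO 1 and 1.44 in Uox_KO 2. The correlations therefore depend on the rule and its limit, and their difference between the sections was not tested.

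**Figure D2:**
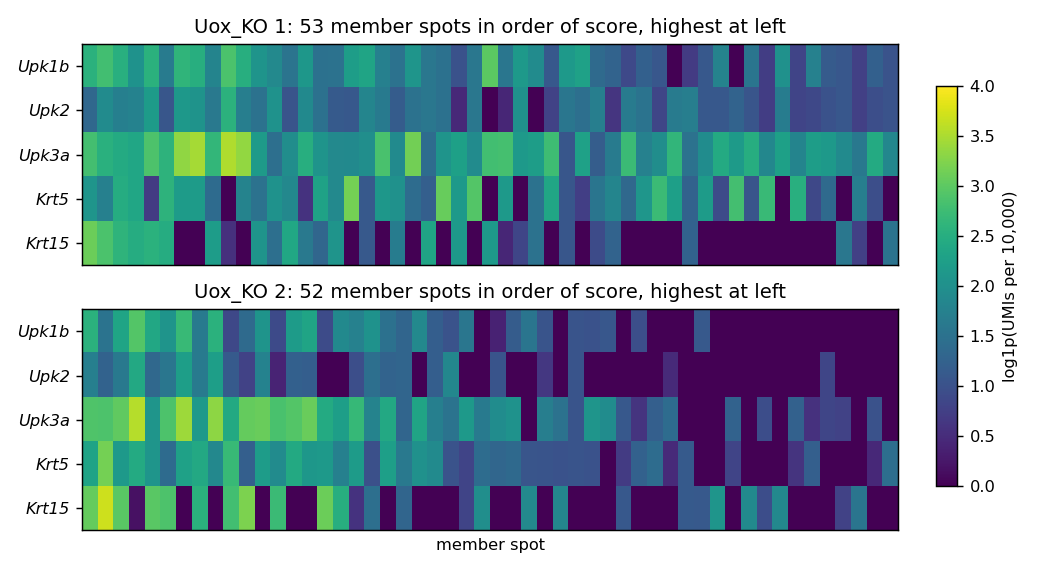
Levels of the 5 genes that chose the spots (rows; colour, log1p of UMIs per 10000) in each member spot (columns, highest score at the left), for Uox_KO 1 above and Uox_KO 2 below. Dark cells have no UMI; in Uox_KO 2 they fill most of the right side for Upk1b and Upk2, which were absent from 18 and 26 of its 52 members.

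To compare members with remaining spots, counts were summed per section and tested across both sections with edgeR's quasi-likelihood test, with the section as a block and the 5 marker genes left out. With Benjamini-Hochberg adjustment over 15112 genes at 0.05, 1957 genes were higher in members (12.9%) and 2543 were lower (16.8%), and the log2 fold change of all genes centred on -0.06. Fold changes are given as log2, members over remaining spots, ± SE. Spots with more of 5 genes must differ in whatever varies with those genes across the section, so these calls describe the spots rather than a treatment. With 1 residual degree of freedom the spread of each gene was taken from the trend over all genes. The p-values and SE given here rest on that trend and leave out a gene's own difference between sections. Aldh3a1, for example, had log2 fold changes of 6.76 and 8.96 in the 2 sections, with an SE of 0.16. Of the 4500 called genes (29.8% of all), 20 ran in opposite directions in the 2 sections (0.44%, against 26.8% of all genes tested). A test over both sections seldom calls such genes, so the low count does not measure agreement between the mice. In summed spots, more cells of a type and more RNA per cell cannot be told apart. Members had 14500 and 12392 UMIs per spot at the median, against 16742 and 19846 in remaining spots, and 9.98% and 8.68% of their UMIs were mitochondrial, against 14.4% and 17.4%. DESeq2 called fewer, 1278 higher and 1444 lower of 13940. With mitochondrial genes left out edgeR called 1977 genes higher and 2436 lower, and with spots of at least 5000 UMIs 1976 and 2577.

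Superficial urothelium genes outside the rule were higher in members without exception: all 14 listed genes were tested and all 14 rose, with a median log2 fold change of 3.65. Upk1a, the plaque tetraspanin that pairs with Upk2, had 997 and 742 CPM in members, against 10.97 and 2.35 CPM in remaining spots. Its log2 fold change was 7.29 ± 0.18, and the section sums of the 2 kinds of spots did not overlap. Single spots varied: Upk1a had UMIs in 52 of 53 members of Uox_KO 1 and in 37 of 52 members of Uox_KO 2. Psca, a surface protein of superficial cells, had 806 and 838 CPM in members, against 8.46 and 3.65 CPM in remaining spots (log2 fold change 7.17 ± 0.18). Upk3b, a uroplakin also made by mesothelium, had 147 and 115 CPM in members, against 2.54 and 1.13 CPM in remaining spots (log2 fold change 6.20 ± 0.20, adjusted p = 1.9e-194). Krt19 and Krt7, keratins of simple and transitional epithelium, rose by 5.61 ± 0.16 and 3.46 ± 0.15. Grhl3, a transcription factor needed for umbrella cell maturation in the mouse, was scarce in both but far higher in members, with 34.2 and 30.3 CPM in members, against 0.345 and 0.158 CPM in remaining spots (adjusted p = 3.5e-36). Krt20, the keratin of fully mature umbrella cells, had 107 and 108 CPM in members, against 11.9 and 11.4 CPM in remaining spots (log2 fold change 3.21 ± 0.18, adjusted p = 4.4e-65). Only 14.9% and 13.9% of the Krt20 UMIs of the sections lay in members, against 64.0% and 84.3% for Upk1a. The transcription factors Klf5 and Pparg rose by 3.55 ± 0.24 and 2.70 ± 0.25, and Elf3, with 93.2 and 118 CPM in members, against 51.5 and 47.1 CPM in remaining spots, rose by 1.09 ± 0.15.

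Basal and intermediate genes were higher as well: of 16 listed, 14 were tested, 12 rose and none fell, with a median of 4.03. Ly6d, a surface protein of basal and intermediate layers, had 1839 and 1309.9 CPM in members, against 16.4 and 3.91 CPM in remaining spots, the highest level of the list (log2 fold change 7.53 ± 0.19). Foxa1, a transcription factor of urothelial differentiation, had 101 and 94.3 CPM in members, against 0.892 and 0.237 CPM in remaining spots (log2 fold change 7.49 ± 0.28, adjusted p = 4.1e-146). Shh, the basal signal to the stroma, had 79.7 and 51.2 CPM in members, against 0.609 and 0.355 CPM in remaining spots (log2 fold change 7.08 ± 0.39, adjusted p = 2.8e-70). In both sections most Shh UMIs lay in these spots (72.0% and 71.0%). Krt14 had 133 and 104 CPM in members, against 2.56 and 0.395 CPM in remaining spots (log2 fold change 6.48 ± 0.22). Trp63, the basal transcription factor, had 68.3 and 52.4 CPM in members, against 1.54 and 0.494 CPM in remaining spots (log2 fold change 5.98 ± 0.36). Gata3, a transcription factor shared with the collecting duct, rose by 3.71 ± 0.18. The basement membrane chain Lamb3, the hemidesmosome collagen Col17a1 and the hemidesmosome integrin Itgb4 rose by 3.80 ± 0.23, 4.26 ± 0.76 and 2.57 ± 0.20. Itga6 and Cd44 did not pass, at -0.40 ± 0.19 (adjusted p = 0.091) and 0.30 ± 0.22 (adjusted p = 0.33). Krt17 and Krt13 had 1 and 2 UMIs in members and were not tested.

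**Figure D3:**
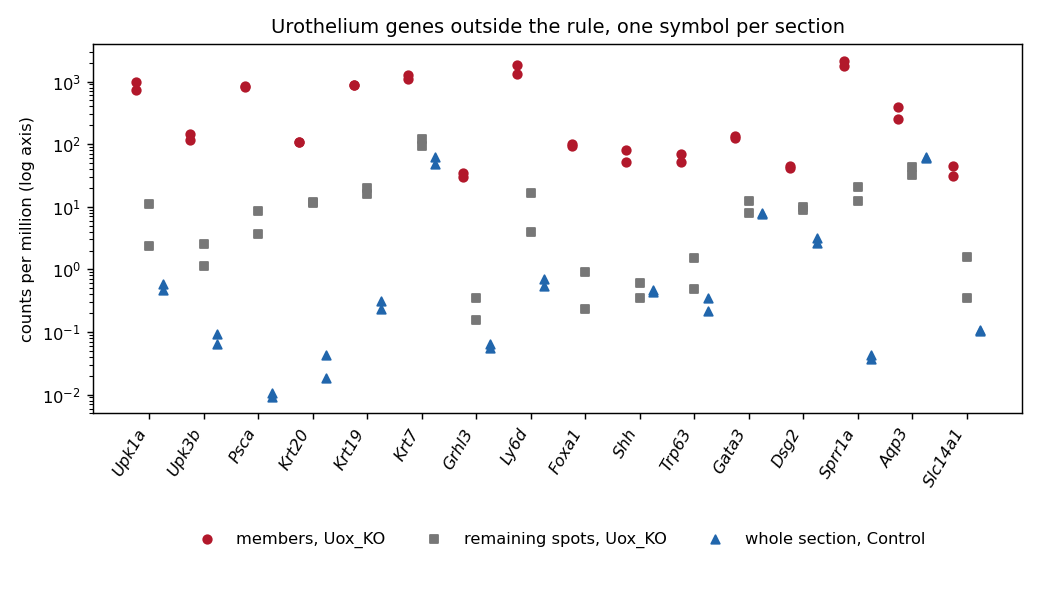
Levels of 16 urothelium genes that the rule did not use (y axis, CPM, log axis) in members (circles) and remaining spots (squares) of the 2 Uox_KO sections and in the whole Control sections (triangles), 1 symbol per section; a Control value of 0 is not drawn. Members lie above the remaining spots for each of these 16 genes, from 30.3 CPM for Grhl3 to 2144 CPM for Sprr1a. The genes are a selection of those that rose. Genes of the same lists that fell, such as Pkp2 and Tgm1, or did not pass, such as Itga6 and Cd44, are not drawn. The whole-section Control values were not scaled with TMM factors.

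The genes with the largest rises, taken in order of log2 fold change among genes with at least 20 CPM in the members of both sections, included genes of epithelial barriers. Gpa33, an immunoglobulin-like surface protein of epithelium, came first with 32.1 and 29.1 CPM in members, against 0.162 and 0 CPM in remaining spots (log2 fold change 8.55 ± 0.63). Sprr2a3 and Ivl, which encode proteins cross-linked under the membrane of stratified epithelium, had log2 fold changes of 8.21 ± 0.24 and 7.60 ± 0.30. Ivl had 107 and 81.5 CPM in members, against 0.872 and 0.158 CPM in remaining spots. Sptssb, a subunit of the enzyme that starts sphingolipid synthesis, had 537 and 406 CPM in members, against 3.89 and 0.75 CPM in remaining spots (log2 fold change 7.83 ± 0.17), and Cers3, a ceramide synthase of the skin barrier, had 44.5 and 30.3 CPM in members, against 0.365 and 0.0197 CPM in remaining spots (log2 fold change 7.73 ± 0.55). The others of the 12 were Gsdmc2, Mir205hg, Serpinb5, Fer1l4, Ly6d, Aldh3a1 and Foxa1, with log2 fold changes between 7.49 ± 0.28 and 7.95 ± 0.63. Of 19 listed cornified envelope and squamous stress genes only 7 passed the filter on low counts; 5 rose and 1 fell. Sprr1a, another envelope precursor, had 1762 and 2144 CPM in members, against 20.6 and 12.5 CPM in remaining spots (log2 fold change 6.91 ± 0.18). Tgm1, the transglutaminase that cross-links such proteins, fell by 1.82 ± 0.41, with 4.14 and 5.82 CPM in members, against 17.6 and 17.3 CPM in remaining spots, and Krt10 did not pass (0.39 ± 0.38, adjusted p = 0.49).

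Cell contacts followed a mixed course. Of 11 desmosome and adhesion genes tested of 13 listed, 9 rose and 1 fell. Pkp1, Dsc2, Dsp and Dsg2, parts of the desmosome, rose by 5.28 ± 0.99, 2.71 ± 0.50, 2.33 ± 0.18 and 2.23 ± 0.24. Pkp2, with 12.4 and 9.31 CPM in members, against 29.1 and 30.2 CPM in remaining spots, fell by 1.44 ± 0.30. Among 15 claudin and tight junction genes, 7 rose and 5 fell. Cldn4 had 199 and 201 CPM in members, against 34.7 and 42.3 CPM in remaining spots (log2 fold change 2.38 ± 0.14) and Cldn23 rose by 5.71 ± 0.60. Cldn2 and Cldn10, claudins of the leaky proximal tubule and of the thick limb, fell by 2.26 ± 0.16 and 1.71 ± 0.17.

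Of 16 transport and barrier genes, 3 rose, a share near that of all genes, and 6 fell. Slc14a1, the urea transporter UT-B, had 45.6 and 31.4 CPM in members, against 1.60 and 0.355 CPM in remaining spots (log2 fold change 5.46 ± 0.43, adjusted p = 3.3e-35). Aqp3, a water and glycerol channel of basolateral membranes, had 395 and 256 CPM in members, against 32.6 and 42.5 CPM in remaining spots (log2 fold change 3.12 ± 0.13, adjusted p = 5.6e-116). Aqp2, the vasopressin-regulated channel of collecting duct principal cells, had 10.4 and 18.6 CPM in members, against 103 and 150.0 CPM in remaining spots and fell by 3.14 ± 0.22. Hsd11b2, another principal cell gene, fell by 2.87 ± 0.24. Of all 10 listed principal cell genes, Aqp3, Gata3 and these 2 included, 4 rose and 3 fell, and their summed level had medians of 5.27 and 4.21 UMIs per 10000 in members, against 0.863 and 1.67 in remaining spots. Aqp3 and Gata3 are part of this sum, with 382 and 132 UMIs in the members of Uox_KO 1. Aqp2 and Hsd11b2 had 10 and 8 there, so the sum is not a measure separate from Aqp3. The part of principal cells in the rise of Aqp3 was not tested. Of the stretch channels, Piezo1 and Piezo2 fell by 0.86 ± 0.22 and 1.94 ± 0.55, and neither passed with DESeq2 (adjusted p = 0.07 and 0.11). Trpv4, with 87.0 and 89.7 CPM in members, against 103 and 101 CPM in remaining spots, did not pass (adjusted p = 0.32), nor did the mucin Muc1, with 18.6 and 27.9 CPM in members, against 32.0 and 32.5 CPM in remaining spots (adjusted p = 0.13). Muc1 passed as lower with the score over the 3 uroplakins alone (-0.70, adjusted p = 0.042) and in members with at least 4 markers (-0.82, adjusted p = 0.015), a setting added after seeing the data, and was at 0.10 and 0.15, with no call, with the highest 5% of spots and with the score over Krt5 and Krt15 alone.

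Among signalling genes, 19 of 20 were tested, 10 rose and 4 fell, with a median of 1.62. The ligands Shh (above), Wnt4 and Tgfa were higher: Wnt4, a Wnt ligand of the urothelium and the stroma, had 65.2 and 47.7 CPM in members, against 4.22 and 2.92 CPM in remaining spots (log2 fold change 3.98 ± 0.27) and Tgfa, a ligand of Egfr, rose by 2.61 ± 0.29. Ptch1, the Shh receptor, had 65.2 and 38.4 CPM in members, against 17.4 and 16.4 CPM in remaining spots (log2 fold change 1.62 ± 0.21, adjusted p = 4.3e-13). Gli1, a transcription factor that hedgehog signalling induces, had 11.4 and 9.31 CPM in members, against 1.83 and 1.26 CPM in remaining spots (log2 fold change 2.74 ± 0.58, adjusted p = 1.5e-05). Ihh, another hedgehog ligand, fell by 2.40 ± 0.43, with 3.11 and 4.66 CPM in members, against 23.3 and 17.0 CPM in remaining spots. The receptors Fgfr2 and Fgfr3 rose by 2.53 ± 0.24 and 1.57 ± 0.19, while Egfr fell (adjusted p = 7.5e-07). The retinoic acid receptors Rarg and Rarb rose by 1.66 ± 0.21 and 1.62 ± 0.38, and the retinoic acid synthase Aldh1a2 fell by 1.02 ± 0.31 but did not pass with DESeq2 (adjusted p = 0.15). Bmp4 did not pass (-0.41 ± 0.24, adjusted p = 0.21).

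Xenobiotic and redox enzymes gave some of the highest levels in the spots. Gstm1, a glutathione transferase, had 6725 and 7222 CPM in members, against 849.6 and 707 CPM in remaining spots (log2 fold change 3.17 ± 0.17). Gsta4, the transferase that clears lipid peroxidation aldehydes, had 1795 and 1693 CPM in members, against 51.2 and 45.6 CPM in remaining spots (log2 fold change 5.17 ± 0.17), and Aldh3a1, an aldehyde dehydrogenase, had 369.6 and 269 CPM in members, against 3.41 and 0.533 CPM in remaining spots (log2 fold change 7.50 ± 0.16). Of all 16 listed genes of this group 5 rose and 7 fell. Gpx3, the secreted peroxidase of the proximal tubule, fell by 2.47 ± 0.18. Akr1b3, the aldose reductase that makes sorbitol, had 1341 and 1122 CPM in members, against 61.5 and 53.0 CPM in remaining spots (log2 fold change 4.43 ± 0.16). S100a6, a calcium-binding protein, had 7996 and 6912 CPM in members, against 404 and 295 CPM in remaining spots (log2 fold change 4.43 ± 0.18), and among 12 S100 and annexin genes 8 rose and 1 fell. Uchl1, a deubiquitinase first known from neurons, had 376 and 275 CPM in members, against 9.05 and 6.50 CPM in remaining spots (log2 fold change 5.39 ± 0.14), while the Schwann cell gene Mbp reached 29.0 and 39.6 CPM in members, against 9.05 and 11.6 CPM in remaining spots.

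The spots also held transcripts of the wall around the lining. All 10 smooth muscle and pericyte genes rose, with a median of 2.43. Actg2, the smooth muscle actin of hollow organs, had 178 and 85.0 CPM in members, against 7.08 and 0.889 CPM in remaining spots (log2 fold change 5.30 ± 0.20). Cnn1, a regulator of contraction, had 266 and 178 CPM in members, against 15.6 and 4.42 CPM in remaining spots (log2 fold change 4.62 ± 0.15). Myh11, the smooth muscle myosin, had 413 and 270.1 CPM in members, against 31.2 and 12.7 CPM in remaining spots (log2 fold change 4.05 ± 0.14). All 3 were lower in the members of Uox_KO 2 than in those of Uox_KO 1. Of 10 adipocyte genes 9 rose (median log2 fold change 1.41). Retn, the fat hormone resistin, had 275 and 590.3 CPM in members, against 81.2 and 162 CPM in remaining spots (log2 fold change 1.82 ± 0.13) and the fat protease gene Cfd had 2309.7 and 5327 CPM in members, against 734 and 1508 CPM in remaining spots (log2 fold change 1.74 ± 0.15). Pck1, which the proximal tubule also makes, was the gene that fell. With the highest 1% of spots as members, Retn and Cfd no longer passed, at 0.30 (adjusted p = 0.23) and 0.26 (adjusted p = 0.23). Both groups were uneven: adipocyte genes summed to 2.63 to 468 UMIs per 10000 over the members of Uox_KO 1 (median 18.6) and 4.16 to 695 in Uox_KO 2 (median 38.4), against medians of 19.8 and 28.6 in remaining spots. Smooth muscle genes had medians of 22.3 and 7.94 in members, against 3.32 and 2.59 in remaining spots. Of 15 fibroblast and lamina propria genes 8 rose and 1 fell, with a median of 0.45. Postn and Lum, matrix proteins of connective tissue, rose by 2.55 ± 0.18 and 1.79 ± 0.18, whereas the fibrillar collagens Col1a1 and Col3a1 did not pass, at 0.14 ± 0.14 (adjusted p = 0.51) and 0.18 ± 0.14 (adjusted p = 0.37). Col3a1 passed as higher with the highest 5% of spots (0.48, adjusted p = 0.047) and with the score over Krt5 and Krt15 alone (0.45, adjusted p = 0.019). No part of the urothelium result was tested against the share of these other cells; without members that were also fat-rich, 1921 genes were higher and 2540 lower.

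Genes of tubular injury, macrophages and MHC class II fell more often than they rose. Of 16 tubular injury genes 2 rose and 9 fell. Havcr1 (KIM-1), the proximal tubule injury receptor, had 5.18 and 16.3 CPM in members, against 97.5 and 113 CPM in remaining spots (log2 fold change -3.33 ± 0.24, adjusted p = 2e-40). Gdf15, a stress cytokine, had 8.28 and 3.49 CPM in members, against 54.4 and 52.4 CPM in remaining spots (log2 fold change -3.15 ± 0.31), and Spp1 (osteopontin) had 1598 and 1488 CPM in members, against 9166 and 8600.1 CPM in remaining spots (log2 fold change -2.53 ± 0.17). The 2 that rose were Krt20, which is also the umbrella cell keratin, and Cdkn1a, a cell cycle inhibitor (0.76 ± 0.19, adjusted p = 0.00027), which did not pass with the highest 1% of spots as members (0.55, adjusted p = 0.076). Of 16 macrophage genes none rose and 7 fell, with Tyrobp, Csf1r and Lyz2 at -0.78 ± 0.18, -0.76 ± 0.19 and -0.58 ± 0.14. Of 7 MHC class II genes none rose and 6 fell, Cd74 by 0.81 ± 0.15. With the highest 5% of spots as members these 4 genes no longer passed, at -0.42 for Tyrobp (adjusted p = 0.07), -0.29 for Csf1r (adjusted p = 0.22), -0.06 for Lyz2 (adjusted p = 0.84) and -0.48 for Cd74 (adjusted p = 0.12). Of 17 matrix remodelling genes tested, 3 rose and 7 fell, among them Timp3 by 1.59 ± 0.15. Of 16 interferon response genes 3 rose, a share near that of all genes, none fell, and the median was 0.08. The endothelial list was near the remaining spots (0 higher and 1 lower of 10, median -0.10; Cdh5 at 0.41 ± 0.24, adjusted p = 0.22, but 0.84 and past the threshold with the highest 5% of spots as members).

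Most tubule lists fell. All 13 genes of proximal segments S1 and S2 fell, with a median of -2.40, and 8 of 9 S3 genes, 7 of 9 thick limb genes, 7 of 8 distal tubule genes and 6 of 8 intercalated cell genes fell, with none higher in these 5 lists. Thin limb and inner medulla genes did not follow: of 10 tested 3 rose, among them S100a6 and Akr1b3, and 4 fell, and their summed level had medians of 88.8 and 33.3 UMIs per 10000 in members, against 11.7 and 8.85 in remaining spots. Slc34a1, the phosphate carrier, had 406 and 708 CPM in members, against 3062 and 3523 CPM in remaining spots (log2 fold change -2.61 ± 0.16), and Lrp2 (megalin) had 89.0 and 113 CPM in members, against 527 and 554 CPM in remaining spots (log2 fold change -2.43 ± 0.16). These transcripts remained detectable in members: the summed S1 and S2 genes had medians of 58.1 and 119.7 UMIs per 10000 in members, against 373 and 369.8 in remaining spots. Of 14 urate and organic anion carriers 12 fell and none rose, including the urate exchanger Slc22a12 (URAT1) by 2.53 ± 0.16 and its scaffold Pdzk1 by 2.40 ± 0.16. Of 20 respiratory chain genes 18 fell and none rose, with a median of -0.60, and Uqcrfs1 fell most clearly, by 1.07 ± 0.14. The 8 largest falls among genes with at least 20 CPM in the remaining spots were Fgg, Cfi, Acmsd, Acot3, Prodh2, Nat8f2, Havcr1 and Clrn3, from -3.83 ± 0.26 to -3.29 ± 0.44. Fgg, the fibrinogen gamma chain, had 6.21 and 9.31 CPM in members, against 96.1 and 124 CPM in remaining spots.

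**Figure D4:**
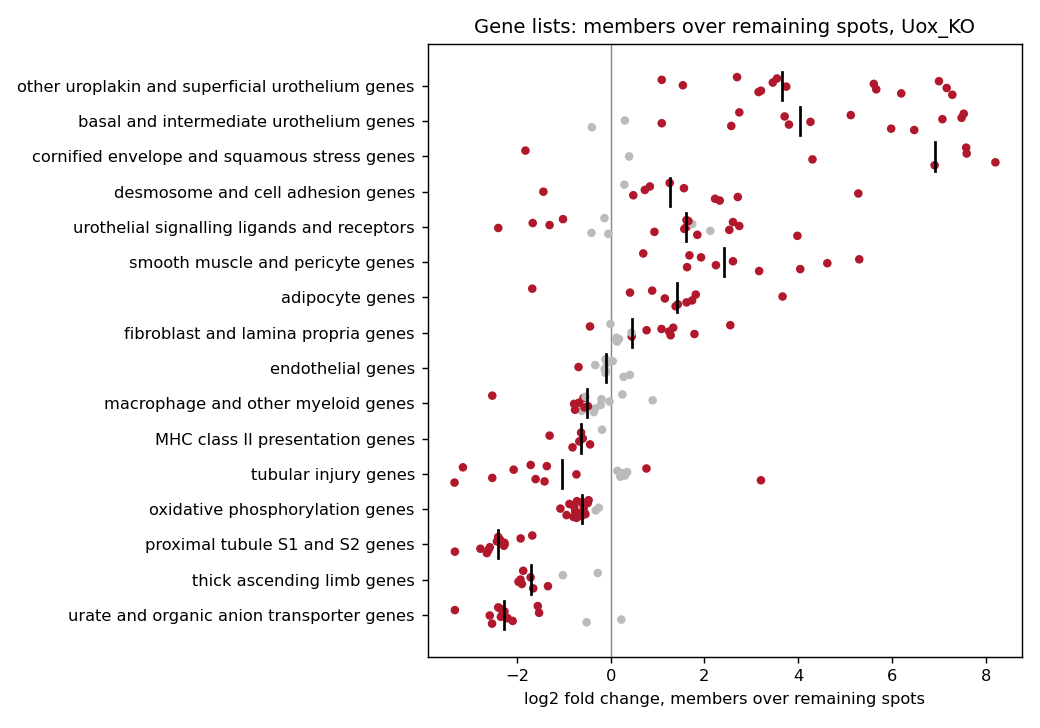
Log2 fold changes of members over remaining spots (x axis) for the tested genes of 16 lists (rows); red points passed at an adjusted p of 0.05, grey points did not, and the black bar is the list median. Medians run from 6.91 for cornified envelope genes to -2.40 for proximal tubule S1 and S2 genes.

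Members were next set against fat-rich and collagen-rich spots of the same 2 sections, each the highest 2% by the same score over Adipoq, Plin1, Cidec, Cfd and Ucp1 for fat and over Col1a1, Col1a2, Col3a1, Dcn and Lum for collagen. Overlap was small: 1 and 2 members were also fat-rich and 1 and 3 were also collagen-rich. Shared spots were counted with the members, which left 52 and 50 fat-rich and 52 and 49 collagen-rich spots. The genes of all 3 scores were left out, and 10754 genes were tested in each comparison. The same members serve in both comparisons, so they are not independent of each other.

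Against fat-rich spots, 2489 genes rose (23.1%) and 2224 fell (20.7%), and the median over all genes was 0.11. Of 13 superficial genes 12 rose, and Pparg, the adipocyte and urothelium regulator, fell by 1.51 ± 0.22. Of 13 basal genes 12 rose. Upk1a had 971 and 726 CPM in members, against 75.2 and 5.33 CPM in fat-rich spots (log2 fold change 4.86 ± 0.41, adjusted p = 7.3e-09). Krt14 had 217 UMIs in members and 0 in fat-rich spots (adjusted p = 1.2e-07). Its share of all UMIs was at least 137-fold higher, taking 3 counts over both sections as the limit for 0. Such bounds and counting ratios, for fat-rich and collagen-rich spots alike, use total UMIs without TMM factors. With TMM factors those against fat-rich spots would be lower. Clca3a2, Dsg2 and Mir205hg were also at 0 in fat-rich spots, and were at least 65.2-fold, 50.7-fold and 36.1-fold higher. Rab27b, a GTPase of vesicle traffic in umbrella cells, had 185 UMIs in members and 1 in fat-rich spots (ratio 351.5, 95% counting interval 62.3 to 13959). In the fit with TMM factors the log2 fold change of Rab27b was 7.66 ± 0.56, a smaller difference. Lypd3, Dnmt3l and Cers3 had 1 or 2 UMIs in fat-rich spots and ratios between 127 and 131.

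All 20 respiratory chain genes fell against the fat-rich spots, with a median of -2.15, and so did 7 of 10 endothelial genes. Ndufa1, a subunit of complex I, had 214 and 276 CPM in members, against 1268 and 1530.3 CPM in fat-rich spots (log2 fold change -2.52 ± 0.16, adjusted p = 3.6e-10), and Cdh5, the endothelial cadherin, had 27.2 and 27.4 CPM in members, against 137 and 105 CPM in fat-rich spots (log2 fold change -2.12 ± 0.23). Cidea, a lipid droplet protein of brown fat, had 276 and 429 CPM in members, against 4695 and 4406 CPM in fat-rich spots (log2 fold change -3.74 ± 0.21). The largest falls were Poln, Cpn2, Adra1a and Ppargc1b, with 2, 2, 3 and 3 UMIs in members and 92, 73, 69 and 50 in fat-rich spots. Smooth muscle genes were higher in members (8 of 10), with Acta2 at 3.19 ± 0.24.

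Against collagen-rich spots, 1028 genes rose (9.56%) and 1084 fell (10.1%), and the median over all genes was -0.01. All 13 superficial genes and 10 of 13 basal genes rose. Sprr1a had 1716 and 2099.5 CPM in members, against 49.4 and 10.7 CPM in collagen-rich spots (log2 fold change 6.13 ± 0.47, adjusted p = 2.1e-08). Shh had 121 UMIs in members and 0 in collagen-rich spots, at least 25.2-fold higher (adjusted p = 4.1e-06). Capn13, Cyp2f2, S100a14, Tmprss13, Lypd3, Gpa33 and Serpinb5 were at 0 there too, with bounds from 10.2-fold to 21.6-fold.

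The stromal and immune lists separated the 2 kinds of spots. Of 10 fibroblast genes 9 fell and none rose, with a median of -1.70, and of 15 matrix remodelling genes 14 fell and none rose, with a median of -2.14. Timp1, an inhibitor of matrix proteases, had 54.4 and 47.9 CPM in members, against 380.0 and 322 CPM in collagen-rich spots (log2 fold change -2.78 ± 0.17, adjusted p = 2.1e-09). Of 16 macrophage genes 15 fell, with a median of -2.22, and of 7 MHC class II genes 6 fell. Lyz2 had 244 and 269 CPM in members, against 1680.0 and 2155 CPM in collagen-rich spots (log2 fold change -2.90 ± 0.22, adjusted p = 1.7e-08). Mmp12, a macrophage elastase, had 3 UMIs in members and 37 in collagen-rich spots, a ratio of 19.8 (95% counting interval 6.26 to 100.2), and Evi2a, Myo1f and Wfdc17 were the next largest falls, from -3.66 ± 0.60 to -3.46 ± 0.27. Respiratory chain genes ran the other way (11 of 20 higher, median 0.49), as did smooth muscle (5 of 10 higher), led by Actg2 at 2.91 ± 0.43. Gsta4 and Gstm1 were higher in members than in remaining, fat-rich and collagen-rich spots alike, at 5.75 ± 0.21 and 4.03 ± 0.23 here and 3.18 ± 0.17 and 3.61 ± 0.23 against fat-rich spots. Of the 10754 genes tested in all 3 comparisons, 477 were higher in all 3 and 50 were lower in all 3; Ctse, a protease, and Fxyd3, an ion pump regulator, chosen after their values were seen, were among the 477. Ctse had 277 and 224 CPM in members, against 2.62 and 0.75 CPM in remaining spots. Fxyd3 had 596 and 522 CPM in members, against 7.77 and 4.66 CPM in remaining spots.

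Members were also set against each other. In each section they were split at the median of the mean uroplakin level minus the mean keratin level, giving 26 and 26 uroplakin-leaning and 27 and 26 keratin-leaning spots. In Uox_KO 2 only Krt15 was higher on the keratin side by UMIs (27 in uroplakin-leaning and 345 in keratin-leaning spots), since Krt5 had 266 in uroplakin-leaning and 171 in keratin-leaning spots. All 6 members of that section without uroplakin UMIs were keratin-leaning, as were 7 of its 10 lowest-scoring members. Of 6672 genes tested without the 5 markers, 346 were higher in uroplakin-leaning spots (5.19%) and 399 were lower (5.98%), and the median over all genes was 0.03. Without the section block the counts were 118 and 198, with DESeq2 size factors 182 and 245, and with DESeq2 itself, which tested 3438 genes, 65 and 69. The number of calls thus moved with the model.

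In uroplakin-leaning spots, 4 of 13 other superficial genes rose and none fell. Krt20 had 175 and 197 CPM in uroplakin-leaning members, against 78.2 and 21.4 CPM in keratin-leaning members (log2 fold change 1.82 ± 0.32, adjusted p = 0.00024), Upk1a had 1579 and 1277 CPM in uroplakin-leaning members, against 779 and 257 CPM in keratin-leaning members (log2 fold change 1.61 ± 0.27, adjusted p = 0.00015), and Upk3b and Snx31 rose by 1.69 ± 0.25 and 1.37 ± 0.24. Sprr1a rose by 1.23 ± 0.27 and Aqp3 by 1.22 ± 0.29. Without the section block Upk1a no longer passed (1.45, adjusted p = 0.085), and Aqp3 passed neither there nor with DESeq2 (adjusted p = 0.3 and 0.67). Snx31 did not pass with DESeq2 (adjusted p = 0.13). Among 13 basal genes only Krt14 passed, with 10.1 and 20.3 CPM in uroplakin-leaning members, against 285 and 285 CPM in keratin-leaning members (log2 fold change -4.19 ± 0.32, adjusted p = 4.5e-09). In members 128 and 89 Krt14 UMIs lay in 16 and 16 spots, 34.4% and 30.3% of them in a single spot. Trp63, Shh and Foxa1 did not pass, at 0.48 ± 0.34, 0.75 ± 0.35 and 0.34 ± 0.26, so the split did not separate the basal list as a whole.

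Genes of the surrounding tissue also separated the 2 kinds of members. Of 9 smooth muscle genes 8 were higher in uroplakin-leaning spots, with a median of 1.94. Cnn1 had 496 and 328 CPM in uroplakin-leaning members, against 140.2 and 28.5 CPM in keratin-leaning members (log2 fold change 2.32 ± 0.28, adjusted p = 2e-06). Of 9 adipocyte genes 8 were higher (median 2.48), and Cidea had 643 and 764 CPM in uroplakin-leaning members, against 46.0 and 136 CPM in keratin-leaning members (log2 fold change 3.08 ± 0.28). All 4 haemoglobin genes tested were higher too, Hba-a1 by 1.54 ± 0.25, though Hba-a1 did not pass without the section block (adjusted p = 0.44). The parts of muscle, fat and blood in the split were not tested. In keratin-leaning spots, 9 of 10 macrophage genes and 5 of 6 MHC class II genes were higher. Lyz2 had 121 and 165 CPM in uroplakin-leaning members, against 446 and 582 CPM in keratin-leaning members (log2 fold change -1.84 ± 0.22, adjusted p = 2e-06), and H2-Ab1 had 273 and 285 CPM in uroplakin-leaning members, against 809 and 1131 CPM in keratin-leaning members (log2 fold change -1.78 ± 0.23).

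Tubule, injury and defence genes also leaned to the keratin side. Of 8 proximal S3 genes 7 were higher there, led by Slc7a13, an acidic amino acid carrier, with 7.59 and 36.2 CPM in uroplakin-leaning members, against 225 and 139 CPM in keratin-leaning members (log2 fold change -3.01 ± 0.39, not past the threshold with DESeq2, adjusted p = 0.12). Of 7 thick limb genes 5 were higher, and Umod (uromodulin) had 195 and 79.1 CPM in uroplakin-leaning members, against 1358 and 418 CPM in keratin-leaning members. The injury genes Lcn2, Spp1 and Clu had log2 fold changes of -2.50 ± 0.42, -1.68 ± 0.29 and -1.99 ± 0.34, and Clu did not pass with DESeq2 (adjusted p = 0.39). Reg3g, an antimicrobial lectin of epithelium, had 0 and 2.26 CPM in uroplakin-leaning members, against 27.6 and 275 CPM in keratin-leaning members (log2 fold change -6.71 ± 0.61, adjusted p = 4.1e-08), though 1 spot held 83.3% of its 12 member UMIs in Uox_KO 1 and 41.0% of 78 in Uox_KO 2. The ion channel subunit Scnn1a and the mucin Muc1, both shared with distal tubule, were higher in keratin-leaning spots, at -2.84 ± 0.51 and -2.63 ± 0.52, and Scnn1a did not pass without the section block (adjusted p = 0.072).

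**Figure D5:**
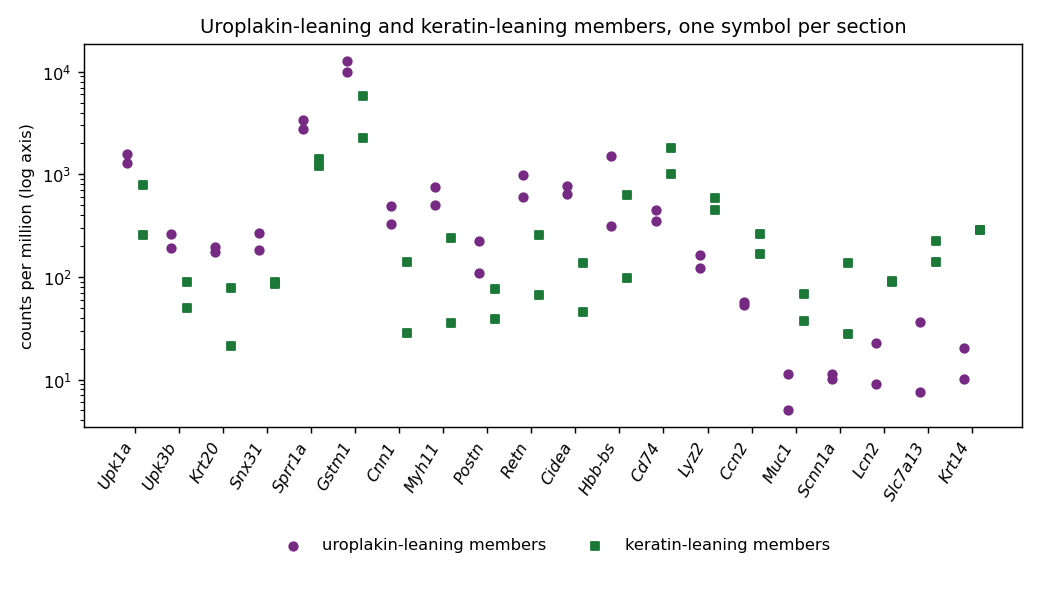
Levels of 20 genes (y axis, CPM, log axis) in uroplakin-leaning (circles) and keratin-leaning members (squares), 1 symbol per Uox_KO section. Genes run from Upk1a, higher in the uroplakin-leaning members, to Krt14, with 10.1 and 20.3 CPM in uroplakin-leaning and 285 and 285 CPM in keratin-leaning members.

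The Control sections gave no comparable spots. Over whole sections, the 5 marker genes had 3701 and 2693 UMIs in Uox_KO, and 5 and 11 in Control. Krt5, Krt15, Krt14 and Foxa1 had 0 UMIs in both Control sections, while Psca had 22.2 and 15.8 CPM in Uox_KO, against 0.0107 and 0.00926 CPM in Control. Ly6d had 48.0 and 23.1 CPM in Uox_KO, against 0.706 and 0.546 CPM in Control. The same rule there took 51 and 67 spots, of which 46 and 56 held no marker UMI and were taken for their depth alone (62286 and 54852 UMIs at the median, against 37097 and 31799 in the rest). Comparing those spots with the rest, 711 genes were higher (4.81%) and 744 lower (5.04%), with 8 (0.0542%) and 195 (1.32%) past 2-fold, against 1238 (8.19%) and 1423 (9.42%) past 2-fold in Uox_KO. Whether the Control sections were cut through the renal pelvis was not analysed here, so the genotypes and the presence of lining in the section cannot be told apart, and no genotype comparison of the urothelium was made.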

How the data were processed

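Visium spatial libraries of kidney sections were measured in 2 Uox_KO and 2 Control mice, 1 section each. The deposited matrices give whole-number counts of UMIs for each gene in each spot over tissue, made with Space Ranger 1.3.1 on mm10, per the submitters' processing notes. Sample labels gave the groups. For members against remaining spots, p-values and SE rest on the trend over genes of the spread between the 2 sections. They leave out a gene's own difference between sections. Scores and pools were computed with Python 3.11.15. Summed counts were tested with edgeR 4.0.16 in R 4.3.3 (filterByExpr, TMM, quasi-likelihood test, section as block), with Benjamini-Hochberg adjustment at 0.05. Members and remaining spots of a number come from the same mouse, so the block follows the tissue. DESeq2 1.42.0 was an alternative. Members and gene lists were chosen with earlier results of these data known. Genes named were the 12 largest rises and 8 largest falls with at least 20 CPM (8 and 4 in the comparisons with fat-rich and collagen-rich spots), all genes of the urothelium lists, and up to 4 of each other list by p. Of the 2 Uox_KO sections 1925 spot barcodes are shared, being slide positions.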

Additional observations from a re-analysis of the deposited data

Results flagged for a closer look

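UMIs of the 5 genes that chose the members were also found outside them, above the level of the Control sections. The remaining spots held 1136 such UMIs in 499 spots of Uox_KO 1 and 280 in 239 spots of Uox_KO 2, against 5 and 11 in the whole Control sections. In Uox_KO 1, 21 remaining spots held 4 of the genes and 7 held all 5, and in Uox_KO 2 none held 4 or 5. With only marker-free spots as the remaining spots, 2011 genes were higher and 2555 lower.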

How the results depend on the processing

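The 134 tested gene differences given in the text were tried under the alternatives run for their own comparison. Those with fat-rich and collagen-rich spots had only DESeq2 size factors, no filter on low counts, no section block and 1 section left out. The split of members had only DESeq2 size factors, no filter, no block and DESeq2. Other choices of members or spots were tried for members against remaining spots alone. Of the resulting values 1658 kept direction and, where they had an adjusted p, side of the threshold. Values without an adjusted p, such as those with 1 section left out, were judged by direction alone. Another 27 lost the call, 5 gained it and 2 changed sign. Both changes of sign were of Muc1 (0.10 with the highest 5% of spots, 0.15 with a score over Krt5 and Krt15 alone). Muc1 passed as lower under 2 other settings. For members against remaining spots DESeq2 called 1278 genes higher and 1444 lower of 13940. Without the section as a replicate block the counts were 1734 and 2235. DESeq2 was the only setting that moved the counts by over 1.5 times. Within the members, the counts were 118 and 198 without the replicate block, 182 and 245 with DESeq2 size factors, and 65 and 69 with DESeq2, added after seeing the data. In Control they were 124 and 149 without the block. With 1 section left out, values had no test. The cause was not tested. The 2 sections and a few UMIs per spot limit genes of low level.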

Other observations

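A few immune and defence transcripts were high in members through single spots. Igha, the heavy chain of IgA, had 5.18 and 200.3 CPM in members, against 25.7 and 11.7 CPM in remaining spots, so the 2 sections ran in opposite directions, and 1 spot held 70.9% of its 172 member UMIs in Uox_KO 2. Igkc and Jchain, of the same antibody, had 67.3% and 59.1% of their member UMIs in 1 spot of that section.

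The share of a superficial gene that lay in members varied widely. Members held 3.42% and 4.06% of the Elf3 UMIs of the 2 Uox_KO sections, 5.73% and 4.42% of those of Krt8, 11.4% and 17.2% of those of Upk3bl, 50.3% and 45.9% of those of Snx31 and 65.1% and 79.6% of those of Psca. Snx31, a sorting nexin, was also present in Control, with 5.34 and 4.00 CPM over the whole Uox_KO sections, against 11.3 and 10.8 CPM over the whole Control sections.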
